A study of Rattus norvegicus with 4 samples.

Results

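Chdh and Il17rb are neighbouring genes on rat chromosome 16, taken here as the rows of the deposited table whose only gene symbol was Chdh or Il17rb. Each gene had 1 row, probe set 17705940 for Chdh and 17709688 for Il17rb, so the pair makes up 2 of the 14557 genes named by a single symbol. The pair was chosen from the glucose comparison itself, and its values in that comparison are therefore given as a description, without a test. The samples were INS-1 cells, an insulin-secreting line from a rat insulinoma that serves as a beta cell model. They had spent 7 days in glucose of 22.4 mM (2 arrays) or of 11.2 mM (2 arrays). No genetic change or further agent is named for either group, and both come from a single cell line. Each array gave a log2 signal for 36685 rows, and every difference below is 22.4 mM minus 11.2 mM on that log2 scale, where 1 is a 2-fold change.

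Chdh encodes choline dehydrogenase, an enzyme of the inner mitochondrial membrane that begins the oxidation of choline to betaine. Betaine can then give a methyl group to homocysteine, which returns it to methionine, so the enzyme links choline to the methyl-group cycle. The enzyme is known mainly from liver and kidney. Il17rb encodes a receptor subunit of the interleukin-17 family that binds the cytokines IL-25 and IL-17B, and for IL-25 it works together with the common subunit encoded by Il17ra. Signals of these receptors pass through the adaptor Act1, the product of Traf3ip2, towards the transcription factor NF-kB.

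The beginnings of these genes face away from each other, which makes them a divergent pair. In RefSeq's promoter table of assembly GRCr8, Il17rb starts on the minus strand and Chdh on the plus strand, with 143 bases between the starts. Windows from 250 bases before to 50 bases after each start shared 243 of their 300 bases. The stretch from 1 of these starts to the other, chr16:5200657-5200801, is printed because it lies directly upstream of both. This holds for the listed starts only, since the gene bodies drawn around all transcripts overlap by 920 bases. The stretch is read on the plus strand, begins with the listed first base of Il17rb, ends with that of Chdh, and has the GC boxes (GGGCGG) in capitals.
Il17rb to Chdh interval: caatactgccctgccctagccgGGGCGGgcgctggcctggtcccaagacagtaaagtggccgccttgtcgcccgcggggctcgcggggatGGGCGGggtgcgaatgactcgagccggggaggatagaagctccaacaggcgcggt

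This stretch of 145 bases was 69.7% G and C and held 15 CpG steps. The whole Chdh window had 31 CpG steps and that of Il17rb 32, against a median of 7 over 27457 promoter windows of the same length, and 9.97% and 8.96% of those windows had at least as many. GC boxes, searched on both strands, were found 2 times between the starts, 4 times in the Chdh window and 2 times in the Il17rb window, and 34.9% of all windows held at least 1. No match was found in either window for the CCAAT box (CCAAT, in 37.7% of all windows), the TATA box (TATAAA, in 14.3%), the E-box (CACGTG, in 6.65%) or the ETS site (CCGGAAG, in 9.22%), each searched on both strands. The carbohydrate response element, searched only as a pair of exact E-boxes 5 bases apart, had no match either. Only 1 of the 27457 windows held such a pair, so the lack of a match says little. Elements with inexact boxes were not searched. These matches describe letters in a window and do not show binding of a factor.

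Of 19 beta cell markers 12 were measured, and all 12 had mean signals at or above 4.76, the median over all rows. In 8 of the 12 the groups did not overlap and were lower at 22.4 mM, against 21% of all rows. In 1 they did not overlap and were higher, against 19.6%. At an unadjusted limma p under 0.05, 4 were lower and 0 higher, against 4.75% and 4.36% of all rows. With Benjamini-Hochberg adjustment at 0.05, 0 passed over all rows. Over rows with 1 gene symbol, where 0.418% of rows passed, 1 did, lower at 22.4 mM. The insulin gene Ins2, named after its values were seen, had 8.73 and 8.84 at 22.4 mM against 10.68 and 10.56 at 11.2 mM, a difference of -1.84 (SE 0.11) and about as far from 0 as those of Chdh and Il17rb. The other insulin gene, Ins1, went the other way, with 11.02 and 11.14 at 22.4 mM against 10.99 and 10.81 at 11.2 mM. Its difference was 0.18 (SE 0.11), and 3 of the 12 markers had a positive difference. Whether these marker differences play a part in the pair's values was not tested. Of 9 measured immune markers 2 had mean signals at or above 4.76, the receptor genes Cd4 and Kit. Of 6 liver and kidney markers 0 reached that signal. Of 7 stromal and endothelial markers 3 reached it, the collagen genes Col1a1 and Col3a1 and the receptor gene Pdgfra. None of these 3 lists had a member at an unadjusted limma p under 0.05, against 9.12% of all rows. Background levels were not analysed here, and no signal was shown to lie above background. Replicate 1 of 11.2 mM stood farther from the other arrays than these stood from each other. Its mean absolute difference was 0.246 and 0.242 from the 22.4 mM arrays and 0.213 from replicate 2 of 11.2 mM, while the other pairs of arrays differed by 0.172 to 0.195. The labels do not say whether replicates were separate cultures, so p-values measure only how these arrays vary, and that variation may be technical.

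Both genes had higher signals at 22.4 mM, and by nearly the same amount. Chdh had log2 signals of 8.61 and 8.56 on the 22.4 mM arrays, against 6.44 and 7.08 on the 11.2 mM arrays. Il17rb had 8.54 and 8.74 on the 22.4 mM arrays, against 6.58 and 6.94 on the 11.2 mM arrays. In each gene both arrays of 22.4 mM lay above both of 11.2 mM, and the gap from the lowest array of 22.4 mM to the highest of 11.2 mM was 1.48 for Chdh and 1.60 for Il17rb. Groups without overlap and higher at 22.4 mM were met in 19.6% of all rows, and since the pair was chosen for this contrast nothing is read from that.

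Chdh averaged 8.58 ± 0.042 at 22.4 mM and 6.76 ± 0.45 at 11.2 mM (SD, n = 2 each), a log2 difference of 1.83 (SE 0.23) or 3.55-fold. Il17rb averaged 8.64 ± 0.14 at 22.4 mM and 6.76 ± 0.26 at 11.2 mM (SD, n = 2 each), a log2 difference of 1.88 (SE 0.16) or 3.67-fold. Ordered by the size of a positive difference, Il17rb was number 7 and Chdh number 8 of all 36685 rows. Signals at least 2-fold higher without overlap were seen in 0.322% of rows. At 22.4 mM, 13.4% of rows were at least as bright as Chdh and 13.0% as Il17rb, and at 11.2 mM the share was 29.5% for each.

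**Figure D1:**
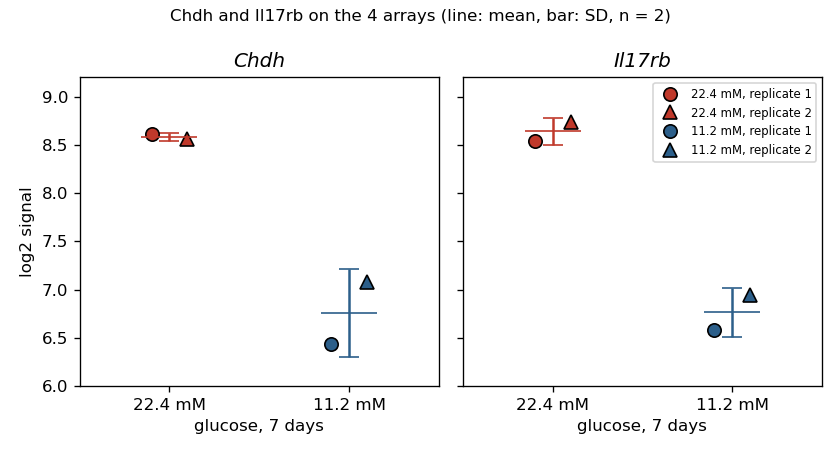
Log2 signal (vertical axis) of Chdh and Il17rb on the arrays of 22.4 mM and 11.2 mM glucose, with the mean as a horizontal line and the SD (n = 2) as a bar. The 22.4 mM arrays lie between 8.54 and 8.74 and the 11.2 mM arrays between 6.44 and 7.08.

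Array by array, the genes kept close to each other across the glucose step and matched only in part between replicates. With each gene's mean over the 4 arrays set to 0, Chdh stood at 0.94 and 0.88 at 22.4 mM and at -1.23 and -0.59 at 11.2 mM. Il17rb stood at 0.84 and 1.04 at 22.4 mM and at -1.12 and -0.76 at 11.2 mM. The genes thus differed from each other by at most 0.16 on any array, while each moved by over 1.4 between any array of 22.4 mM and any of 11.2 mM. Within 11.2 mM, replicate 1 was the lower array for both genes, by 0.64 for Chdh and by 0.36 for Il17rb. A replicate difference at least that large, in either direction, was met in 4.76% of all rows for the size seen in Chdh and in 16.6% for that of Il17rb. Within 22.4 mM the order was opposite, with replicate 2 minus replicate 1 at -0.06 for Chdh and 0.20 for Il17rb. With 4 arrays in 2 groups no correlation is given.

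Replicate 1 of 11.2 mM, the array that stood apart, was also the lowest array for each gene. Without it the difference was 1.51 for Chdh and 1.70 for Il17rb, and without replicate 2 of 11.2 mM it was 2.15 for Chdh and 2.06 for Il17rb. Which gene had the larger difference therefore turned with the 11.2 mM array kept, while both differences stayed above 1.5. Il17rb minus Chdh was 0.05 with all 4 arrays, 0.19 without replicate 1 of 11.2 mM and -0.09 without replicate 2.

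Genes on either side of the pair had smaller differences. The pair was chosen for its differences in this contrast, so nothing is read from that. The 4 nearest measured genes on each side were taken from the RefSeq gene order without regard to their values, and 8 further genes within the stretch, the calcium channel gene Cacna1d next to Chdh among them, had no row with a single symbol. Of the 8 measured neighbours 0 passed limma with Benjamini-Hochberg adjustment over all rows, as did 0% of all rows, and at an unadjusted p under 0.05 there were 3, 2 higher and 1 lower, against 9.12% of all rows, 4.36% higher and 4.75% lower. The median log2 difference of the 8 was -0.0016, beside -0.0027 over all rows. The groups did not overlap in 6 of them, 3 higher and 3 lower at 22.4 mM, against 40.6% of all rows, 19.6% higher and 21% lower. Among the 14824 rows with 1 gene symbol, 6603 were without overlap.

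Actr8, which encodes an actin-related subunit of the INO80 chromatin remodeller, is the next gene on the Il17rb side. Its log2 signals were 8.73 and 8.77 at 22.4 mM, against 8.58 and 8.59 at 11.2 mM, a difference of 0.16 (SE 0.094). On the Chdh side the nearest measured gene was Dcp1a, a subunit of the mRNA decapping complex, with 8.26 and 8.36 at 22.4 mM against 8.36 and 8.37 at 11.2 mM, a difference of -0.06 (SE 0.098). The arrays of the groups lay apart in both genes, barely so in Dcp1a, and by small amounts beside those of Chdh and Il17rb, which lie between them.

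Farther out, Wnt5a, a secreted Wnt ligand, and Tkt, the transketolase of the pentose phosphate pathway, had the largest differences among the neighbours. Wnt5a had 6.19 and 6.31 at 22.4 mM, against 5.37 and 5.39 at 11.2 mM, a difference of 0.87 (SE 0.10), with the groups well apart. Its limma adjusted p was 0.252 over all rows and 0.0378 over rows with 1 gene symbol, where 0.418% of rows were called, and it ranged from 0.0378 to 0.827 over the alternatives. Tkt (17705975) had 10.47 and 10.46 at 22.4 mM, against 9.56 and 9.94 at 11.2 mM, a difference of 0.71 (SE 0.15). A dimmer row of Tkt (17709760) differed by 1.12 (SE 0.18), and the mean of its rows by 0.91, above the difference of Wnt5a. In both rows replicate 1 of 11.2 mM was the lowest array, as it was for Chdh and Il17rb.

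The other neighbours differed by less. Cacna2d3, an auxiliary calcium channel subunit, had 5.89 and 5.87 at 22.4 mM against 6.38 and 6.21 at 11.2 mM, a difference of -0.41 (SE 0.11). Arhgef3 differed by -0.21 (SE 0.11). Sfmbt1, a chromatin protein, and Stimate, a protein of the endoplasmic reticulum, differed by 0.06 (SE 0.12) and -0.08 (SE 0.12), and their groups overlapped.

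**Figure D2:**
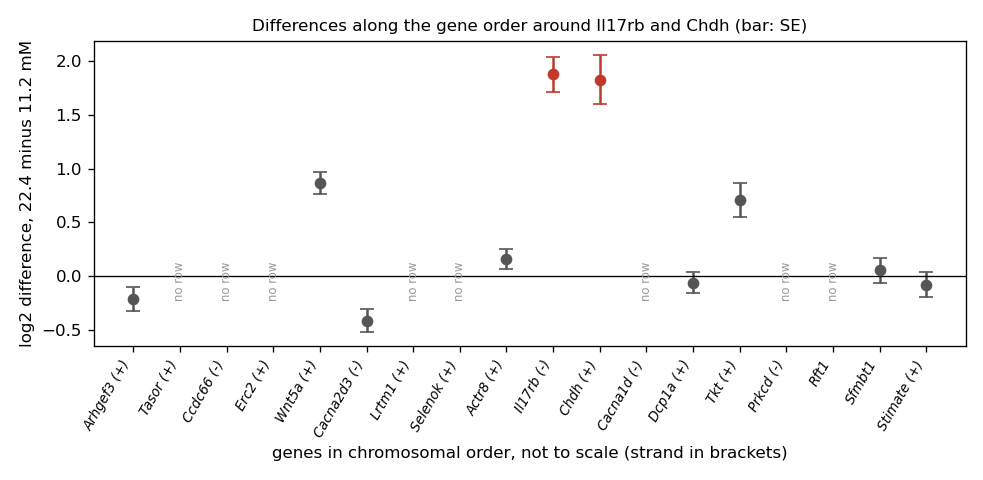
Log2 difference, 22.4 mM minus 11.2 mM, with its SE as a bar, for the measured genes in chromosomal order around Il17rb and Chdh (not to scale, strand in brackets where listed). Each gene is shown by its brightest row. Il17rb and Chdh stand at 1.88 and 1.83, and the highest neighbour shown, Wnt5a, at 0.87.

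The RefSeq gene table, drawn around all of a gene's transcripts, has the bodies of Chdh and Il17rb overlapping by 920 bases and those of Actr8 and Il17rb by 5923 bases, on opposite strands in both cases. Probe positions were not analysed here, and whether overlapping transcripts share signal was not tested. Of the pair's overlapping neighbours, Actr8 differed by 0.16 where Il17rb differed by 1.88.

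Other divergent pairs measured here had smaller differences. Pairs on opposite strands with overlapping windows and starts that face away were taken from the same promoter list, and in 293 of them, Il17rb and Chdh included, both genes had a row with a single symbol. A pair with several listed starts was counted once, with its nearest starts. A median of 188 bases lay between their starts. Both genes were without overlap in the same direction in 58 of the 293, or 19.8%, 20 higher and 38 lower at 22.4 mM. In 27 they were without overlap in opposite directions. The shares over all rows are for single rows and cannot be set beside these counts. No share for pairs of unrelated genes was calculated, so nothing is read from the counts. In 1 pair, Il17rb and Chdh, both genes differed at least 2-fold in the same direction. The pair was chosen for its differences in this contrast, so nothing is read from that. Among all rows, 0.322% were at least 2-fold higher without overlap and 0.164% at least 2-fold lower. The only other pair with a gene past 2-fold was Ikzf5 and Acadsb, where the zinc finger gene Ikzf5 differed by -0.05 and Acadsb, an acyl-CoA dehydrogenase of branched-chain amino acid breakdown, by -1.63. That pair is named after its values were seen. By closeness of the gene-centred values over the 4 arrays, Il17rb and Chdh were number 147 of the 293 pairs, with a mean absolute difference of 0.13, which was the median.

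**Figure D3:**
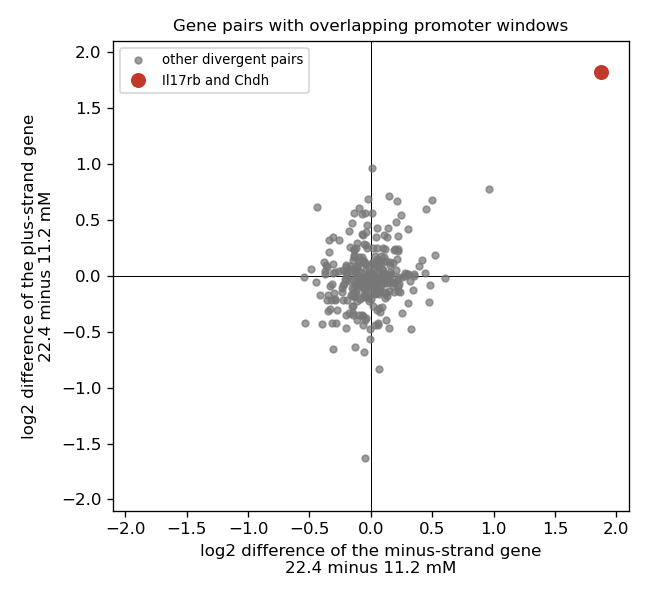
Log2 difference, 22.4 mM minus 11.2 mM, of the minus-strand gene (horizontal axis) and the plus-strand gene (vertical axis) in 293 divergent pairs, each point a pair. Il17rb and Chdh lie at 1.88 and 1.83, and Ikzf5 and Acadsb at -0.05 and -1.63.

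Among rows with a single symbol at or above the median signal, the array pattern most like that of Il17rb belonged to Adarb1, which encodes an RNA-editing deaminase. Likeness was the mean absolute difference of gene-centred log2 values over the 4 arrays, across 8704 rows. For Il17rb it was 0.064 to Adarb1, 0.088 to the potassium channel subunit gene Kcnab3, 0.099 to Mrap2, an accessory protein of melanocortin receptors, 0.13 to the calcium-binding protein gene S100a4 and 0.13 to Chdh. For Chdh the nearest was Mrap2 at 0.058, followed by Adarb1 at 0.069, Kcnab3 at 0.080, Il17rb at 0.13 and Mxd3, a MAX-binding repressor, at 0.13. The genes of the pair were thus number 4 and number 5 in each other's order, and 3 genes stood nearer to both of them. The measure depends largely on the glucose difference, for which the pair was chosen. Rows with large rises of similar size therefore stand near each other, and nothing is read from these ranks.

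Adarb1 had log2 signals of 9.13 and 9.17 at 22.4 mM, against 7.02 and 7.48 at 11.2 mM. Mrap2 had 7.97 and 8.01 at 22.4 mM, against 5.98 and 6.57 at 11.2 mM. Kcnab3 had 8.29 and 8.37 at 22.4 mM, against 6.40 and 6.86 at 11.2 mM. In these 3 genes, as in Chdh and Il17rb, replicate 1 was the lower array of 11.2 mM. S100a4 had 6.67 and 6.90 at 22.4 mM against 4.73 and 4.74 at 11.2 mM, where its replicates were nearly equal.

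**Figure D4:**
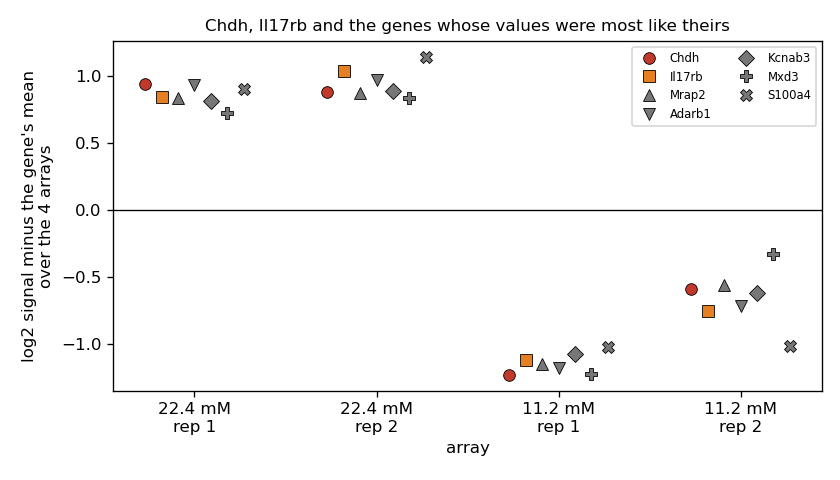
Log2 signal minus the gene's mean over the 4 arrays (vertical axis) on each array, for Chdh, Il17rb and the genes most like them. Chdh stands at 0.94 and 0.88 on the 22.4 mM arrays and at -1.23 and -0.59 on those of 11.2 mM, and the other genes lie around these values.

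Genes of the pathways around the pair had smaller differences over the 4 arrays, from which, given how the pair was chosen, nothing is read. Of 96 genes in 8 lists of choline, methyl-group and IL-17 genes, 71 were measured, and 0 passed limma with Benjamini-Hochberg adjustment, whether over all rows (lowest adjusted p = 0.296, for Slc44a4) or over rows with 1 gene symbol (lowest adjusted p = 0.0858). At an unadjusted p under 0.05 there were 7, 3 higher and 4 lower, against 9.12% of all rows. The groups did not overlap in 31 of the 71, 15 higher and 16 lower. Beside this stand 40.6% of all rows, 19.6% higher and 21% lower, and 6603 of the 14824 rows with 1 gene symbol. The counts of each list below stand beside these same shares. With all 4 arrays 0 of the 71 reached a 2-fold difference. The widest was -0.99 (SE 0.68) for Aldh1l2, a mitochondrial folate enzyme named after its values were seen, with 4.50 and 4.72 at 22.4 mM against 6.63 and 4.57 at 11.2 mM. Its groups overlapped, and its difference was 0.04 when replicate 1 of 11.2 mM was left out. With replicate 2 of 11.2 mM left out, 4 genes passed 2-fold, Aldh1l2 at -2.02 among them with Shmt2, Mthfd2 and Pcyt1b, and with replicate 2 of 22.4 mM left out 2 did, Aldh1l2 and Shmt2.

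Choline uptake genes supply the substrate of choline dehydrogenase. Of 8 listed 5 were measured, with a median difference of -0.02, and the groups did not overlap in 2, both lower at 22.4 mM. Slc44a4, a choline transporter-like protein, had 7.66 and 7.64 at 22.4 mM against 8.28 and 8.18 at 11.2 mM, a difference of -0.58 (SE 0.099). Slc44a2, another of this family, had 6.95 and 6.89 at 22.4 mM against 7.46 and 7.42 at 11.2 mM, a difference of -0.52 (SE 0.095). The main choline transporter Slc44a1 and the mitochondrial carrier Slc25a48 had no row with a single symbol.

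Genes that act after Chdh in betaine formation and use had a median of -0.06 over 5 of 7 genes, with no overlap in 2, both lower. Aldh7a1, the dehydrogenase that turns betaine aldehyde into betaine, had 9.37 and 9.45 at 22.4 mM against 9.65 and 9.76 at 11.2 mM, a difference of -0.30 (SE 0.10). Bhmt, the methyltransferase that uses betaine to make methionine, was dim, with 4.55 and 4.26 at 22.4 mM against 4.80 and 4.74 at 11.2 mM. Its signals lay around or under the median of all rows, so the size of its difference of -0.36 (SE 0.14), which ran from -0.51 to -0.21 with 1 array left out, is not settled.

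Phosphatidylcholine genes, which draw on the same choline, had a median of -0.0023 over 7 of 11 genes, with no overlap in 3, 2 higher and 1 lower. Pcyt1b, an enzyme of CDP-choline formation, had 10.05 and 10.08 at 22.4 mM against 8.89 and 9.74 at 11.2 mM, a difference of 0.75 (SE 0.29). Leaving out replicate 1 of 11.2 mM gave 0.32, and leaving out replicate 2 gave 1.17. The phosphotransferase gene Chpt1 differed by 0.21 (SE 0.15, from 0.044 to 0.39 with 1 array left out) and the choline kinase gene Chkb by -0.14 (SE 0.095).

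Methionine and folate cycle genes had a median of 0.0060 over 14 of 23 genes, with no overlap in 6, 3 higher and 3 lower. Shmt2, a mitochondrial enzyme of serine and glycine, had 7.68 and 7.87 at 22.4 mM against 9.29 and 8.12 at 11.2 mM, a difference of -0.93 (SE 0.40). Leaving out replicate 1 of 11.2 mM gave -0.34, and leaving out replicate 2 gave -1.52. Tyms, the thymidylate synthase, differed by 0.46 (SE 0.14, from 0.30 to 0.61 with 1 array left out) and Cth, which makes cysteine, by -0.41 (SE 0.23). For Cth the same omissions gave -0.10 and -0.73.

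On the receptor side, the partner subunit gene Il17ra had 7.52 and 7.68 at 22.4 mM against 7.45 and 7.71 at 11.2 mM, a difference of 0.02 (SE 0.14), and its groups overlapped. The other 3 receptors of the family were dim, from 4.24 to 4.72 at 22.4 mM and from 4.06 to 5.12 at 11.2 mM. Among them Il17re, a receptor of IL-17C, differed by -0.29 (SE 0.16), and by -0.11 or -0.47 when replicate 1 or 2 of 11.2 mM was left out. Over the 4 other receptors the median was 0.03, with no overlap in 2, 1 higher and 1 lower.

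The 5 measured ligands had signals from 3.75 to 5.11 at 22.4 mM and from 3.57 to 5.09 at 11.2 mM. Il25, the gene of the Il17rb ligand IL-25, had 5.11 and 4.72 at 22.4 mM against 4.91 and 4.63 at 11.2 mM, and its groups overlapped. Il17c, chosen as the brightest ligand, had 5.08 and 5.08 at 22.4 mM against 4.93 and 5.09 at 11.2 mM. The ligands' median difference was 0.07, with no overlap in 1, higher. All of these signals were close to or under the median of all rows, so no ligand was shown to be expressed.

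Genes of the signalling route below the receptor had a median of 0.0050 over 14 of 17, with no overlap in 7, 3 higher and 4 lower. Traf3ip2, the Act1 adaptor gene, had 5.51 and 5.91 at 22.4 mM against 5.88 and 5.89 at 11.2 mM, with overlap. Nfkbia, an inhibitor of NF-kB and itself induced by it, had 8.07 and 8.21 at 22.4 mM against 7.70 and 7.84 at 11.2 mM, a difference of 0.37 (SE 0.11). Tab3, an adaptor of the kinase TAK1, differed by -0.26 (SE 0.14), and the kinase gene Chuk by 0.10 (SE 0.10). With 1 array left out these ran from -0.42 to -0.11 for Tab3 and from 0.031 to 0.17 for Chuk.

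Known IL-17 target genes, chemokines and inflammatory proteins, had a median of 0.04 over 17 of 20, with no overlap in 8, 5 higher and 3 lower. Most were dim, since 5 of the 17 had signals at or above the median of all rows. Cebpb, a transcription factor, had 5.49 and 5.75 at 22.4 mM against 6.47 and 5.89 at 11.2 mM, a difference of -0.56 (SE 0.23), which became -0.27 or -0.84 when replicate 1 or 2 of 11.2 mM was left out. The chemokine genes Cxcl2 and Ccl20 differed by 0.31 (SE 0.15) and 0.11 (SE 0.10), with ranges of 0.13 to 0.48 and 0.052 to 0.17 when 1 array was left out.

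**Figure D5:**
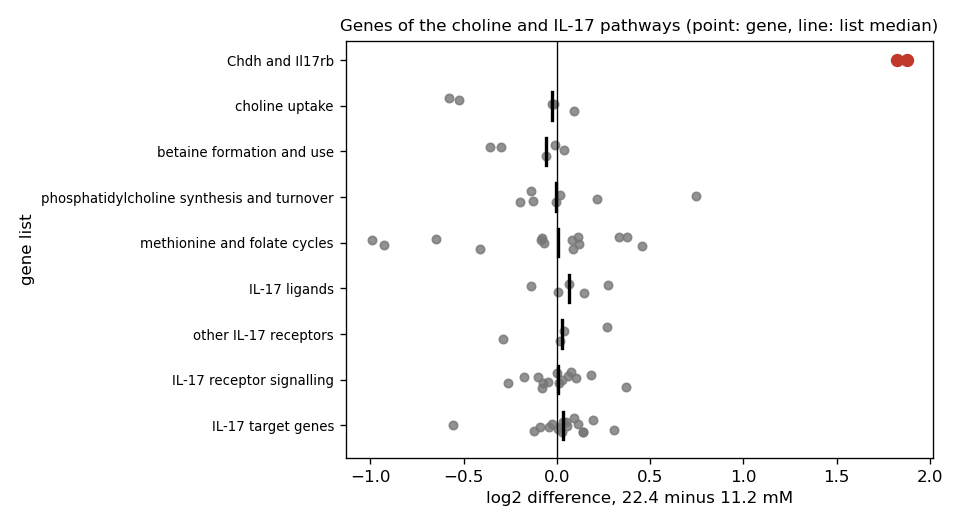
Log2 difference, 22.4 mM minus 11.2 mM (horizontal axis), of Chdh and Il17rb in the top line and of the measured genes of the 8 lists below it, each point a gene and each line a list's median. The pair lies at 1.83 and 1.88, and the genes of the lists between -0.99 and 0.75.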

How the data were processed

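The authors deposited 1 table of log2 signals for 36685 rows (probe sets) on 4 Affymetrix arrays, hybridized with biotin-labelled single-stranded cDNA per the labels' protocols. That the base is 2 follows from the values' range, 2.23 to 13.2, and is not stated. How the background was corrected and the values normalized and summarized, and the genome build, are likewise not stated. Values were used as deposited (array medians 4.73 to 4.80), without a filter. Gene names came from the platform annotation, which can be old: 14824 rows had 1 symbol, 829 several and 21032 none used here. The brightest row stood for a gene. The comparison used R 4.3.3 and limma 3.58.1 (two-sided, eBayes after lmFit, 2 residual degrees of freedom), with Benjamini-Hochberg adjustment over all rows and a threshold of 0.05. The code was tested on simulated data. With 4 arrays precision is limited, and the median SE of a difference was 0.12.

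Members and lists were chosen with earlier results of these data known, and the comparison with other divergent pairs was added after the values were seen. Genes named were the 4 nearest measured neighbours on each side, up to 3 members of each list with the largest differences among brighter rows without overlap (or the brightest member), 7 fixed pathway genes where measured, and the 5 rows most like each member. Gene order and promoters came from RefSeq (GRCr8), used for names, order and sequence. Alternatives were array-median centring, quantile normalization, rows with 1 symbol, brighter rows, eBayes with trend, a replicate block, leaving out each array, and averaging a gene's rows.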

Additional observations from a re-analysis of the deposited data

How the results depend on the processing

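The differences of Chdh and Il17rb kept their direction under every alternative run, which was largely fixed in advance. Their groups do not overlap, so leaving out 1 array cannot turn the sign. Row filters, eBayes settings and the replicate block cannot change a difference of group means. The differences without 1 array ranged from 1.51 to 2.15 for Chdh and from 1.70 to 2.06 for Il17rb. Over the other settings they ranged from 1.83 to 1.84 and from 1.88 to 1.89. Il17rb minus Chdh ranged from -0.088 to 0.19 without 1 array. Without 1 array, rows at an unadjusted p under 0.05 numbered 2114 to 5709, against 3344 with all, and rows without overlap 24891 to 27433, against 14876, since fewer arrays overlap less often; 6603 rows with 1 symbol and 8630 brighter rows were without overlap, of fewer rows. Over rows with 1 symbol 62 passed adjustment and 1912 an unadjusted p under 0.05, and fewer rows were tested there. With brighter rows alone the medians were -0.52 for choline uptake, -0.30 for betaine genes and -0.14 for the other IL-17 receptors, with fewer genes in each. Without 1 array the medians ran from -0.056 to 0.094 for neighbours, -0.11 to -0.028 for choline uptake, -0.11 to -0.0089 for betaine genes, -0.076 to 0.023 for phosphatidylcholine genes, -0.060 to 0.044 for methionine and folate genes, -0.012 to 0.10 for ligands, -0.024 to 0.082 for receptors, -0.021 to 0.020 for signalling and -0.0046 to 0.10 for targets. Small differences that turned sign without 1 array were those of Sfmbt1 (-0.048 to 0.16), Stimate (-0.19 to 0.029), Il17c (-0.012 to 0.15), Il17ra (-0.11 to 0.15), Il25 (-0.051 to 0.34) and Traf3ip2 (-0.38 to 0.026). The cause was not tested. Same-numbered arrays of the groups did not deviate together (correlation -0.078), and with a replicate block 0 rows passed and the differences of the pair were as reported. With 2 arrays in a group, the size of a rise rests on few values, and dim signals can understate it.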

Other observations

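A few other divergent pairs had both genes without overlap in the same direction by at least 0.4 on the log2 scale, a limit chosen after the values were seen. With Chdh and Il17rb these were 5 of the 293. Nln, which encodes the peptidase neurolysin, and its partner Sgtb, a co-chaperone gene, were higher at 22.4 mM by 0.96 and 0.78. Firrm and Mettl18, a gene of DNA repair and a methyltransferase gene, were higher by 0.50 and 0.68. Tstd2 and Ncbp1, the second a subunit gene of the nuclear cap-binding complex, were higher by 0.45 and 0.60. Fam227b and Dtwd1 were lower, with differences of -0.54 and -0.42.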
